A study of Glycine max with 4 samples.

Results

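The regions described here are places in the soybean genome where both ChIP replicates had a peak and at least 1 replicate had 2 or more separate peaks. They are called split regions. They were chosen from the deposited peak positions alone: peaks of both lists that overlapped by at least 1 bp were merged, and 447 of 28903 merged regions with peaks of both replicates met the rule (1.55%; Wilson 95% interval 1.41 to 1.70%). The remaining 28456 held exactly 1 peak of each replicate and are called simple regions, and the whole series held 48207 merged regions. The pattern of 2 peaks in 1 replicate was the usual one but not the only one, since 9 regions had 3 peaks of a replicate and 7 were split in both replicates.

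Chromatin came from embryos of the cultivar Williams 82 at the early maturation stage, dissected from seeds of 6 to 7 mm on greenhouse plants, with no treatment compared. The study has 4 libraries, 2 immunoprecipitated (ChIP) and 2 of total chromatin (input), each pair numbered as biological replicates 1 and 2. The antibody was raised against a peptide covering residues 322 to 336 of GLYMA.13G317000, and input was the only control, so other proteins that the antibody may bind cannot be told apart. Chromatin had been sheared to 100 to 500 bp. Whole embryos were used, so 2 sites bound on the same molecule and 2 sites bound in different cells cannot be told apart, nor can fewer bound cells be told from weaker binding per cell.

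The peak names carry BZIP67, a basic leucine zipper transcription factor, taken here to be that protein. Factors of this class bind DNA as dimers, mostly at sequences with an ACGT core. In Arabidopsis, bZIP67 acts in the maturing embryo with the NF-Y complex that contains LEC1, and its known targets include genes of storage protein and fatty acid synthesis. Promoters of seed storage protein genes often carry several short elements for different maturation factors close together. Peak calling on sheared chromatin can report neighbouring enriched sites as 1 broad peak or as several narrow ones. Whether the regions below hold such elements was not tested. Gene names and sequences at the positions below were not analysed here, because no genome or annotation of the files' build was used.

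The list of replicate 1 had 47284 peaks and that of replicate 2 had 30289, each peak with 1 summit. Strength is given as the authors' fold, the ratio of ChIP fragments over the summit to the local background, set separately for each replicate. Which input library served each replicate was not given. The number of ChIP fragments over a summit (pileup), recovered from the deposited fold and −log10 p, had a median of 52 in replicate 1 and 44 in replicate 2. The smallest gap between neighbouring peaks of a list was 50 bp in both lists, so sites whose peaks came closer were listed as 1 peak. Every strength, width and summit position below belongs to the peaks that the rule used, so these values are descriptions without a test.

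Replicate 2 was the one that split. It alone split 386 of the 447 regions (86.4%; Wilson 95% interval 82.9 to 89.2%), replicate 1 alone split 54 (12.1%; 9.38 to 15.4%) and both split 7 (1.57%; 0.761 to 3.20%). In all, replicate 2 split 393 of the 28903 shared regions (1.36%) and replicate 1 split 61 (0.211%). Splits by replicate 2 outnumbered those by replicate 1 on each of the 20 chromosomes. Replicate 2 was also the library with fewer peaks and lower pileups, and the part of depth and enrichment in its splitting was not tested. Of the 61 regions split by replicate 1, 7 were also split by replicate 2 (11.5%), and those 7 were 1.78% of the 393 split by replicate 2. By number of peaks, 378 regions had 1 peak in replicate 1 and 2 in replicate 2, and 8 had 1 and 3. Another 54 had 2 and 1, 6 had 2 in each replicate and 1 had 2 and 3.

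The summits inside a split region lay about 500 bp apart. In the 393 regions split by replicate 2, the strongest 2 summits were a median of 497 bp apart (quartiles 435 and 623 bp, range 177 to 1642 bp). In the 61 split by replicate 1 the median was 444 bp (376 and 532 bp, range 217 to 832 bp). The most populated 100 bp class was 400 to 500 bp in both, with 142 of 393 regions (36.1%) and 19 of 61 (31.1%). The rule bounds these distances, since a pair entered only where peaks of the other replicate joined it. All neighbouring pairs of shared replicate 2 peaks rose in number from 233 at 400 to 500 bp to 314 at 700 to 800 bp. No preferred spacing of sites is therefore drawn from the split regions. Distances under 300 bp were found in 5 and 4 regions, and distances of 1000 bp or more in 11 and 0 regions; a count of 0 among 61 allows a share of up to 4.92%, from a limit of 3 counts. The stretch with no peak between neighbouring peaks of a split region had a median of 132 bp over 402 pairs in replicate 2 and 70 bp over 61 in replicate 1. The longest was 627 bp in replicate 2 and 202 bp in replicate 1.

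**Figure D1:**
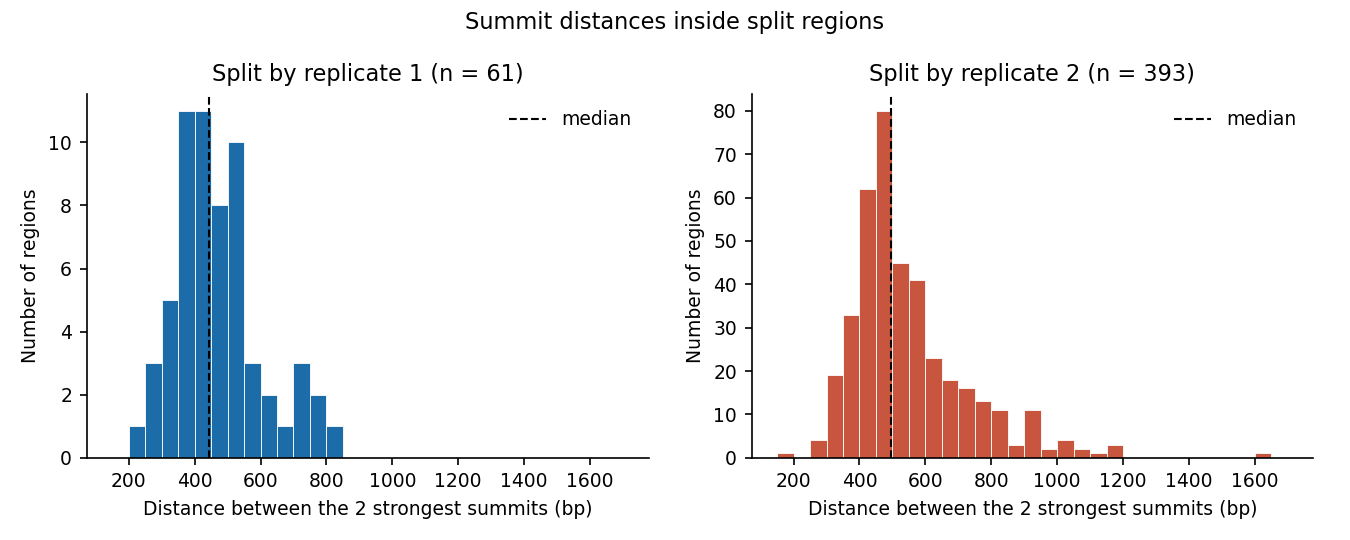
Distance in bp between the 2 strongest summits of a split region (x axis, 50 bp classes) against the number of regions (y axis), for the 61 regions split by replicate 1 (left) and the 393 split by replicate 2 (right). Dashed lines mark the medians of 444 and 497 bp; only replicate 2 has distances of 1000 bp or more.

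The 3 shortest distances were all under 300 bp. On chromosome 10 from 47544069 to 47544616, replicate 2 had summits at 47544221 and 47544398, 177 bp apart, with folds of 3.46 and 2.37 and pileups of 37 and 26. Replicate 1 had 1 peak of 537 bp there, with a fold of 4.83 and its summit at 47544224, 3 bp from the stronger site. On chromosome 5 from 29644797 to 29645377, replicate 1 was the one that split, with summits 217 bp apart and folds of 2.56 and 2.53. The single summit of replicate 2, at 29645070 with a fold of 3.21, fell between them, 128 bp from one and 89 bp from the other. The third, on chromosome 7 from 2253940 to 2254794, had replicate 2 summits 280 bp apart with folds of 5.47 and 3.70, and a fold of 6.85 in replicate 1.

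The longest distances came from stronger and wider regions. The widest spacing, 1642 bp, was on chromosome 10 from 47753578 to 47755785, where replicate 2 had 3 peaks with folds of 8.85, 4.36 and 14.0. Its middle peak was the weakest of the 3, and replicate 1 covered all of them with 1 peak of 2208 bp whose summit lay 5 bp from the strongest. On chromosome 19 from 866180 to 867842, replicate 2 had folds of 8.48 and 12.03 at summits 1183 bp apart, and replicate 1 had a fold of 10.8. On chromosome 20 from 38286992 to 38289387, replicate 2 had 3 peaks with folds of 14.8, 6.83 and 5.74, and its strongest 2 summits were 1163 bp apart. Across regions, distance and the fold of the stronger site had a Spearman correlation of 0.452 in replicate 2 (n = 393) and 0.434 in replicate 1 (n = 61), with both values taken from the same peaks.

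The share of close pairs that ended up in a split region was highest at short spacing. Pairs of neighbouring peaks of replicate 2, both shared with replicate 1, were joined by replicate 1 in 56 of 67 cases at 300 to 400 bp (83.6%; Wilson 95% interval 72.9 to 90.6%). The figures were 146 of 233 at 400 to 500 bp (62.7%; 56.3 to 68.6%), 89 of 247 at 500 to 600 bp (36.0%; 30.3 to 42.2%) and 41 of 276 at 600 to 700 bp (14.9%; 11.1 to 19.5%). From 1000 to 1500 bp it was 11 of 1367 (0.805%), and from 1500 to 2000 bp 0 of 1140, which allows up to 0.263%. Pairs in the list of replicate 1 were joined by replicate 2 in 16 of 25 cases at 300 to 400 bp (64.0%; 44.5 to 79.8%), 19 of 90 at 400 to 500 bp (21.1%; 14.0 to 30.6%) and 13 of 192 at 500 to 600 bp (6.77%; 4.00 to 11.2%). The intervals of the lists did not overlap from 400 to 800 bp, nor from 800 to 1000 bp with 4.44% (3.05 to 6.43%) against 0.178% (0.0314 to 1.00%). Under 400 bp they overlapped. From 500 bp up, most pairs in either list were kept as separate regions.

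**Figure D2:**
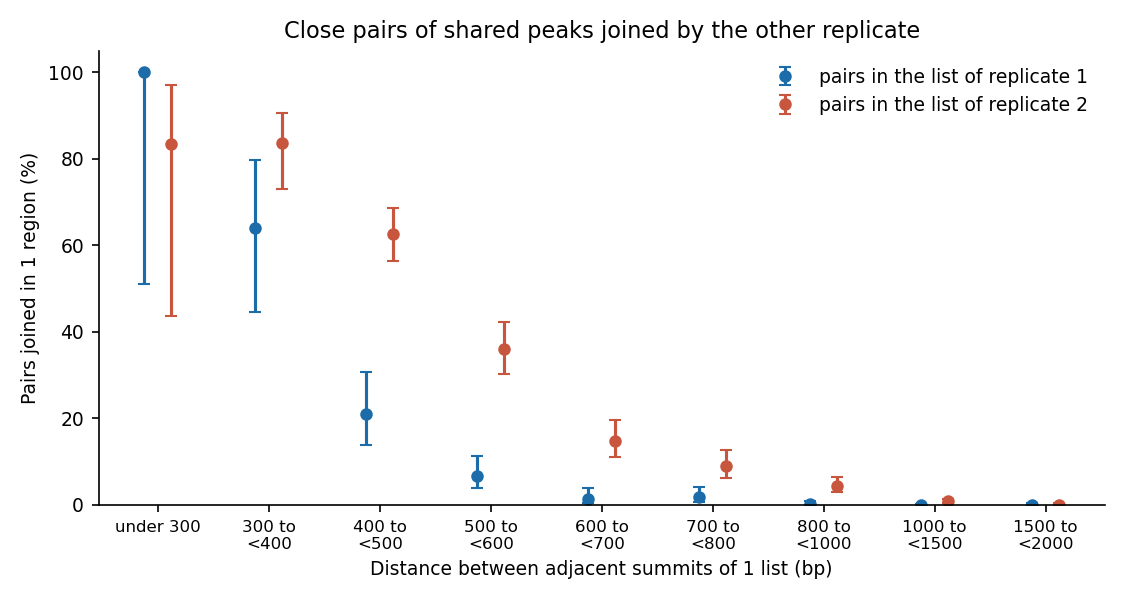
Percentage of close pairs of shared peaks that the other replicate joined into 1 region (y axis, points with Wilson 95% intervals), by the distance between their summits in bp (x axis), for pairs in the list of replicate 1 (blue) and of replicate 2 (red). Between 400 and 500 bp, 21.1% of replicate 1 pairs and 62.7% of replicate 2 pairs were joined.

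Joined pairs differed more in strength than separate pairs of like spacing in most distance classes. In replicate 2, the weaker peak of pairs at 400 to 500 bp had a median of 0.681 times the fold of the stronger when joined, against 0.799 when separate. At 500 to 600 bp these ratios were 0.612 and 0.699, and at 600 to 700 bp 0.554 and 0.670. At 500 to 600 bp the median fold of the stronger peak was 7.02 in joined pairs and 6.03 in separate pairs, while the weaker peaks had 3.89 and 3.97. In replicate 1, the ratios were 0.505 and 0.683 at 400 to 500 bp and 0.276 and 0.649 at 500 to 600 bp, the former from 19 and 13 joined pairs. The order was the opposite in replicate 2 under 300 bp (0.827 over 5 joined pairs and 0.787 in 1 separate pair) and at 1000 to 1500 bp (0.704 over 11 joined pairs and 0.650) and in replicate 1 at 600 to 700 bp (0.864 over 3 and 0.651) and 800 to 1000 bp (0.812 over 1 and 0.645).

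Inside a split region, the listed folds of the 2 strongest sites often differed. By pileup, counting error left the order unresolved in most regions split by replicate 2, as given below. The ratio of weaker to stronger fold cannot exceed 1, because the sites were sorted by fold. In regions split by replicate 2, the stronger site had a median fold of 6.10 (quartiles 4.65 and 9.15) and the weaker 3.70 (3.22 and 4.49). The median ratio of weaker to stronger was 0.651 (quartiles 0.490 and 0.810). In regions split by replicate 1 the medians were 6.59 and 3.33, with a ratio of 0.566 (0.380 and 0.733). The weaker site had less than 0.5 times the fold of the stronger in 107 of 393 regions (27.2%) and 25 of 61 (41.0%). It had at least 0.8 times that fold in 107 of 393 (27.2%) and 14 of 61 (23.0%). Stronger and weaker folds had a Spearman correlation of 0.482 over the regions of replicate 2 and 0.490 over those of replicate 1, where both sites share a library. Sorting the 2 sites by fold makes such a correlation positive by itself, so no link between the sites is drawn from it. Where the stronger fold was at least 10, the weaker was still under 5 in 49 of 88 regions of replicate 2 and 12 of 15 of replicate 1.

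The weaker sites had a −log10 q down to 2.16 in replicate 2 and 3.38 in replicate 1, where the authors' threshold of 0.01 is 2. Their median pileup was 33 fragments in replicate 2 and 41 in replicate 1, against 55 and 79 at the stronger sites. Their median −log10 q was 8.29 and 9.48, and it was under 5 in 45 of 393 (11.5%) and 4 of 61 (6.56%). At such depth many orders are not resolved. The exact (Clopper-Pearson) 95% interval of the weaker site's share of both pileups left out 50% in 184 of 393 regions of replicate 2 (46.8%) and 39 of 61 of replicate 1 (63.9%). These intervals cover counting error only. In 30 of 393 and 5 of 61 regions the site with the lower fold had the higher pileup, so the order there came from the local background. The stronger site lay at the lower coordinate in 191 of 393 (48.6%; Wilson 95% interval 43.7 to 53.5%) and 28 of 61 (45.9%; 34.0 to 58.3%), so neither side of the region was favoured beyond counting error.

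**Figure D3:**
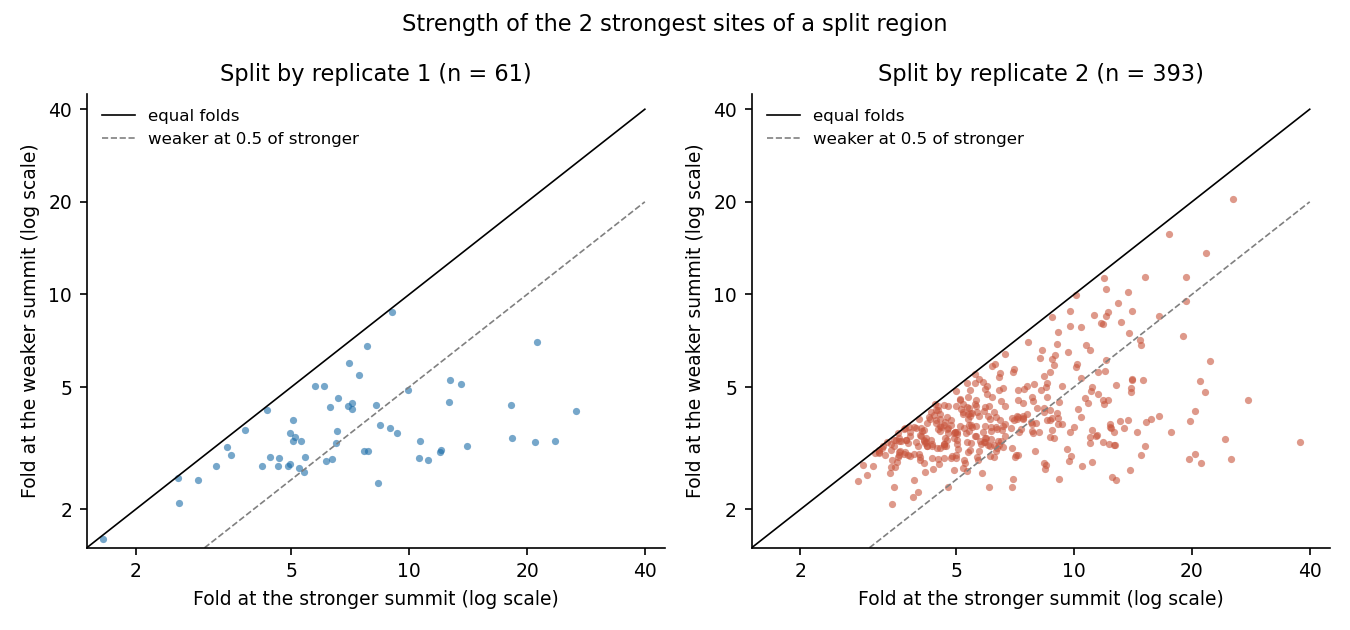
Fold at the stronger (x axis) and weaker (y axis) of the 2 strongest summits of each split region, both on log scales, for the 61 regions split by replicate 1 (left) and the 393 split by replicate 2 (right); the solid line marks equal folds and the dashed line a ratio of 0.5. Points spread from the line of equality at low folds to weaker sites mostly under a fold of 10 at high ones.

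The replicate with 1 peak put its summit at the site that the other replicate gave as the stronger. In the 386 regions split by replicate 2 alone, the replicate 1 summit was within 50 bp of the stronger site in 294 (76.2%; Wilson 95% interval 71.7 to 80.1%), within 50 bp of the weaker in 41 (10.6%; 7.93 to 14.1%) and near neither in 51 (13.2%). The median distance to the stronger site was 23 bp. In the 54 split by replicate 1 alone, the replicate 2 summit was within 50 bp of the stronger site in 36 (66.7%; 53.4 to 77.8%), of the weaker in 4 (7.41%) and of neither in 14 (25.9%). Summits more than 100 bp from both sites were rare, with 15 of 386 and 4 of 54, and 13 and 3 of these lay between the sites.

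Where the single summit lay at the weaker site, the sites were close to equal. The median ratio was 0.871 in those 41 regions of replicate 2, and the lowest was 0.651, against 0.583 in the 294 with the summit at the stronger site. In replicate 1 the ratios were 0.860 over 4 regions and 0.432 over 36. So the regions in which the replicates differed on the leading site were those with the more similar folds at both sites, on these medians.

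**Figure D4:**
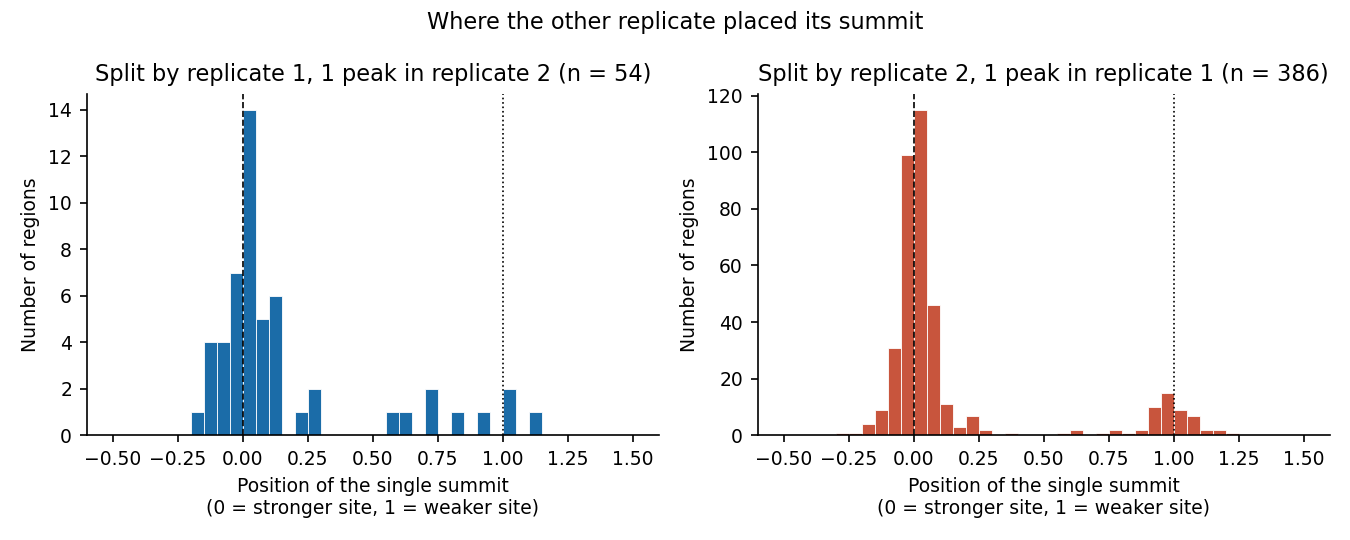
Position of the single summit of the unsplit replicate on a scale where 0 is the stronger and 1 the weaker site of the splitting replicate (x axis), against the number of regions (y axis), for 54 regions split by replicate 1 alone (left) and 386 split by replicate 2 alone (right); 1 region in each panel lies outside the axis. Most single summits sit near 0. Within 50 bp of the weaker site lie 4 (left) and 41 (right), and 14 and 51 lie within 50 bp of neither site.

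The single peak of replicate 1 nearly always spanned both sites. It covered both summits in 380 of the 386 regions (98.4%; Wilson 95% interval 96.7 to 99.3%), and its median width was 942.5 bp. Its median fold was 8.23, over 91 fragments. The single peak of replicate 2 covered both summits in 41 of 54 regions (75.9%; 63.1 to 85.4%), and its median width was 701.5 bp. Its median fold was 5.04, over 47 fragments. In 12 of the other 13 it covered 1 of the summits, and in 1 it covered neither. The single replicate 1 peaks were lopsided. Their summit lay a median of 25.3% of the peak's width from the nearer edge (quartiles 21.1 and 30.1%), where 50% would be the centre. In simple regions this was 43.8%, and in the 1213 simple regions at least 800 bp wide it was 33.3%.

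The highest mean folds were nearly equal in split and simple regions, at 34.0005 in a split one and 33.9872 in a simple one. The highest fold of each replicate lay in simple regions, with 35.0 in replicate 1 and 39.1 in replicate 2. In the split region with the highest mean fold, on chromosome 1 from 8097179 to 8098324, replicate 2 listed a main peak (fold 37.9, 274 fragments) and, 585 bp away, a second one (fold 3.31, 31 fragments). Replicate 1 listed 1 peak of 1015 bp (fold 30.1, 301 fragments), its summit 2 bp from the main site. The second site held 10.2% of both pileups (exact 95% interval 7.01 to 14.1%), and its ratio to the first, 0.0874, was the lowest of any split region.

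Among the split regions next in mean fold, some second sites were weak and others strong. On chromosome 6 from 15222955 to 15224293, the mean of the strongest folds was 27.3 ± 3.17 (SD, n = 2), and replicate 2 had a second site with a fold of 2.92 beside 25.1. On chromosome 6 from 3180092 to 3181649, the mean was 26.0 ± 0.695, and replicate 2 listed 2 strong sites 806 bp apart, with folds of 20.4 and 25.5 and pileups of 159 and 197. That weaker site was the strongest weaker site of all split regions, and replicate 1 had 1 peak of 1558 bp with a fold of 26.5 there, 7 bp from the stronger site. The gap between the replicate 2 peaks was 50 bp, the smallest found in that list. On chromosome 20 from 35315207 to 35316272, the mean was 25.5 ± 1.70, with a second site of fold 3.40 beside 24.3.

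On chromosome 5 from 4077787 to 4079210, the mean was 25.2 ± 5.00, and the second site of replicate 2 had a fold of 4.82 beside 21.7. On chromosome 6 from 8415665 to 8417064, it was 24.3 ± 2.92, with folds of 22.3 and 6.07 at summits 915 bp apart. On chromosome 3 from 45481133 to 45482274, it was 24.1 ± 5.34, with 27.8 and 4.54. Chromosome 6 thus held 3 of the 10 split regions with the highest mean fold. The only one of the 10 split by replicate 1 lay on chromosome 11 from 31810789 to 31811837, where replicate 1 had folds of 26.6 and 4.17 and replicate 2 had 21.1 in 1 peak of 1008 bp. The last 2 lay on chromosome 17 from 10222535 to 10224087, with replicate 2 folds of 21.8 and 13.6, and on chromosome 7 from 5377983 to 5378904, with 20.3 and 3.04. In 8 of these 10 regions the second site had a fold under 10 that was less than 0.5 times the main one; the exceptions were those on chromosome 6 from 3180092 and on chromosome 17.

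Pairs of 2 strong sites were few. A weaker site with a fold of at least 10 was found in 8 of 393 regions split by replicate 2 (2.04%; Wilson 95% interval 1.04 to 3.96%) and 0 of 61 split by replicate 1, which allows up to 4.92%. After the chromosome 6 pair, the next was on chromosome 8 from 2703173 to 2705727, where replicate 2 had 3 peaks with folds of 5.35, 15.7 and 17.5. Its 2 strong summits were 1072 bp apart with pileups of 160 and 166, too close to order by counting (exact 95% interval of the weaker's share 43.5 to 54.6%). Replicate 1 placed its summit, with a fold of 25.7, 37 bp from the site of fold 15.7. On chromosome 14 from 45833986 to 45835243, replicate 2 had folds of 15.1 and 11.4, 741 bp apart. On chromosome 17 from 34899711 to 34901473, it had 19.3 and 11.4, 1155 bp apart, and replicate 1 had a fold of 14.9 at the stronger site.

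Of the 9 regions with 3 peaks of a replicate, the 5 with the highest mean fold were all split by replicate 2 alone. They include the regions on chromosomes 8, 10 and 20 given above. On chromosome 5 from 38217722 to 38219656, the folds of replicate 2 were 17.7, 3.57 and 3.41, and replicate 1 had a fold of 17.3 within a peak of 1697 bp. On chromosome 8 from 8126018 to 8127672, the folds were 4.00, 5.79 and 10.1 in order of position, and replicate 1 had a fold of 15.0, 29 bp from the strongest. In all 5 the strongest peak was the first or the last of the 3. The summit of replicate 1 lay within 50 bp of it in 4, and at the middle peak in the chromosome 8 region from 2703173.

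The 7 regions split in both replicates allow the sites to be compared one by one. In 6 of the 7, the same side was the stronger in both replicates. On chromosome 5 from 37469839 to 37470829, replicate 1 had folds of 6.49 and 3.28 and replicate 2 had 6.51 and 3.34, with summits 6 and 43 bp apart between replicates. The ratio of weaker to stronger was 0.505 and 0.513 there. On chromosome 5 from 39923986 to 39925176, replicate 1 had 5.97 and 7.03 and replicate 2 had 5.85 and 6.17, with summits 31 and 29 bp apart. Both sites of that region were near equal in both replicates, with ratios of 0.850 and 0.949.

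On chromosome 5 from 40814830 to 40815768, replicate 1 had folds of 4.34 and 6.99 and replicate 2 had 3.75 and 5.46; the stronger summits matched to 1 bp, the weaker to 133 bp. On chromosome 20 from 47215037 to 47216280, the folds were 7.13 and 4.25 in replicate 1 and 4.95 and 3.55 in replicate 2, with summits 3 and 19 bp apart. On chromosome 7 from 44131455 to 44132257, they were 7.69 and 3.10 in replicate 1 and 4.37 and 2.70 in replicate 2, with summits 3 and 13 bp apart. On chromosome 17 from 3410603 to 3411875, replicate 1 had 4.29 and 6.27, and replicate 2 had 3 peaks with 3.50, 3.46 and 4.03. The middle one of these had no peak of its own in replicate 1. In these 6 regions the ratio of weaker to stronger was nearer 1 in replicate 2 than in replicate 1, by between 0.0077 and 0.214.

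The exception was on chromosome 2 from 42934243 to 42935615. Both replicates had the same main site, at 42934948 with a fold of 18.2 in replicate 1 and at 42934969 with 15.2 in replicate 2. The second peak of replicate 1, with a fold of 4.39, lay 566 bp before it, and that of replicate 2, with a fold of 3.21, lay 392 bp after it. This region therefore held 3 separate sites over both lists, and its replicates split it at different places. Of the 7, 3 were on chromosome 5. All 7 lay in the outer 20% at either end of their chromosomes (Wilson 95% interval 64.6 to 100%). That interval includes the shares of all split regions (71.5%) and of simple regions (68.4%) that lay there.

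**Figure D5:**
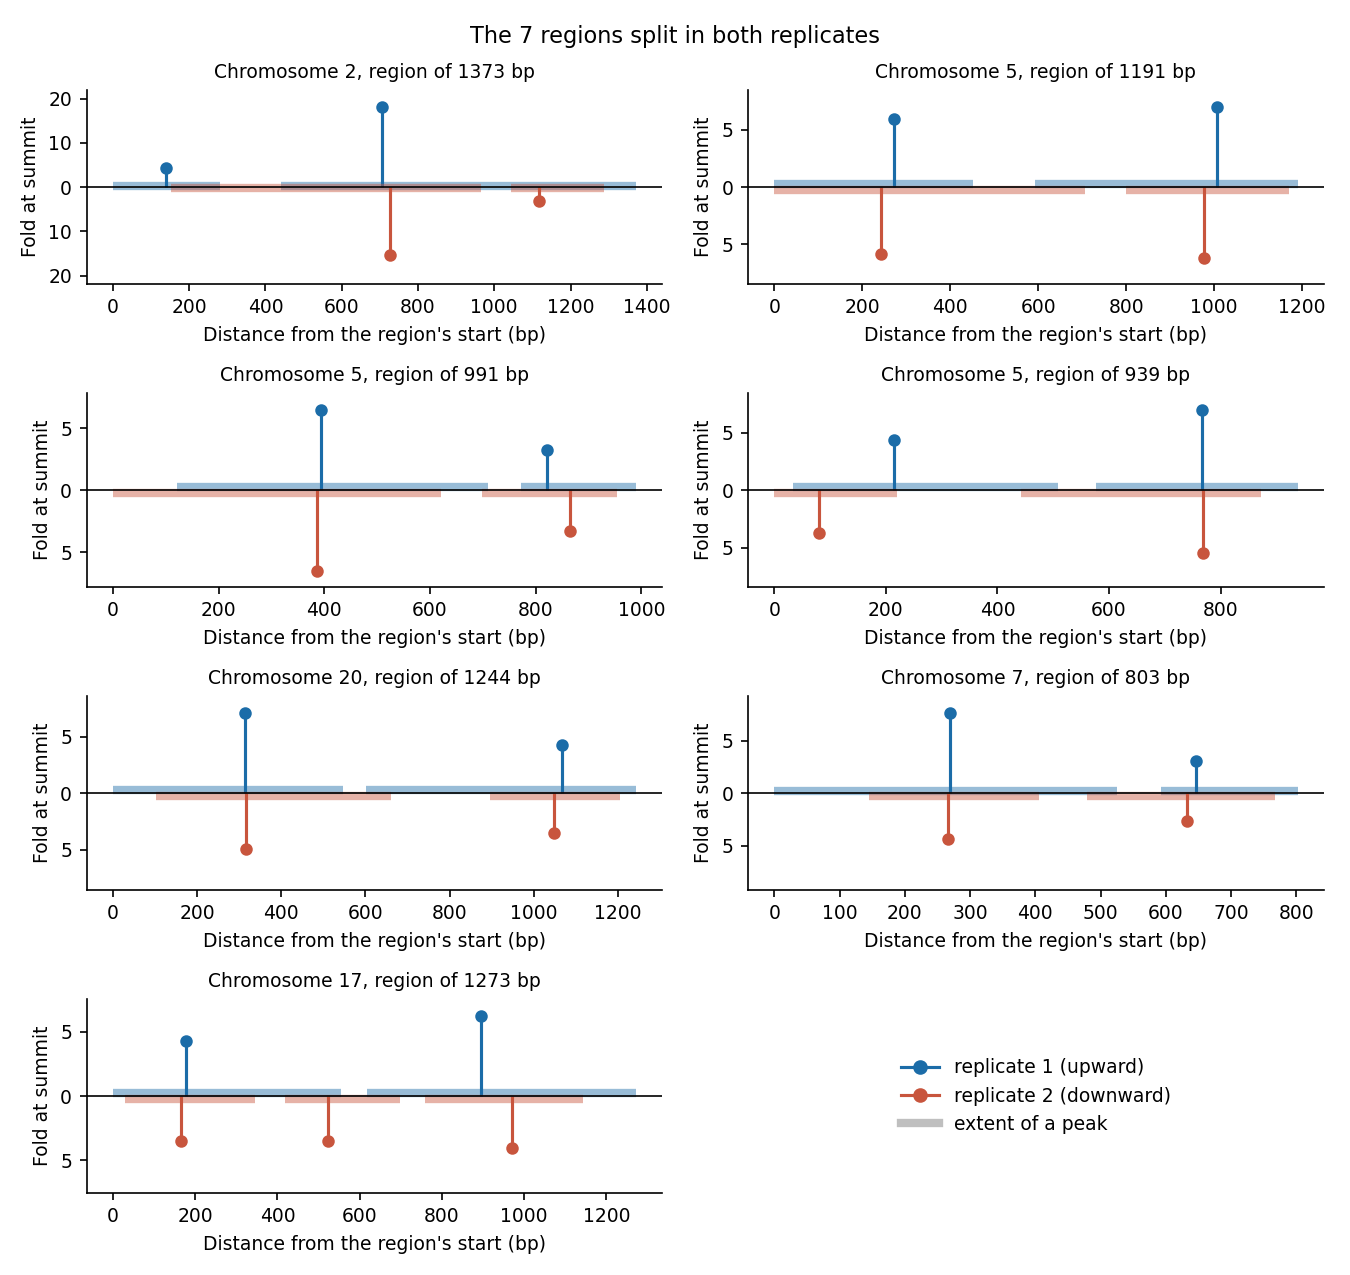
Summits of the 7 regions split in both replicates, drawn at their distance in bp from the region's start (x axis) with the fold as height (y axis), replicate 1 upward in blue and replicate 2 downward in red; pale bars give the extent of each peak. In 6 panels the taller line is on the same side in both replicates, and in the chromosome 2 region the second sites lie on opposite sides of the main one.

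Split regions were wider and had higher folds than simple regions, a comparison given without a test. Their median width was 948 bp (quartiles 821 and 1150.5 bp), against 432 bp (353 and 544 bp). The median of the strongest fold was 7.96 in replicate 1 and 6.09 in replicate 2, against 6.50 and 5.01 in simple regions. Pileups at the strongest summit were 91 and 55 fragments against 73 and 45. Local background was alike, with medians of 10.1 fragments in replicate 1 and 7.81 in replicate 2 for both kinds of region. The fold of replicate 2 was a median of 0.808 times that of replicate 1 in split regions and 0.806 times in simple ones, and it was the lower in 380 of 447 (85.0%) and 80.9%.

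A region's strength here is the mean of each replicate's highest fold, so a split list entered with the highest of its peaks. As a description, the share of shared regions that were split was higher among stronger regions. It was 0.709% in the weakest quintile of mean fold (Wilson 95% interval 0.523 to 0.961%), 1.40% in the third (1.13 to 1.74%) and 2.46% in the strongest (2.09 to 2.89%), which began at a mean fold of 9.21. By width, which 2 peaks in a region raise by themselves, the share was 2.19% at 600 to 800 bp. It was 17.2% at 800 to 1000 bp and 46.4% at 1200 bp or more. The count of 0 among 11431 regions under 400 bp was fixed by the peak sizes, so no limit is drawn from it. The narrowest peak was 204 bp in replicate 1 and 199 bp in replicate 2, and the smallest gap was 50 bp in both lists. Any 2 peaks of a list and their gap therefore took more than 400 bp. Of the 1572 shared regions at least 800 bp wide, 359 were split (22.8%; 20.8 to 24.98%). The wide simple regions were stronger than the split ones of that width, with a median mean fold of 10.2 against 8.00 in wide split regions. The strongest summits of both replicates lay more than 100 bp apart in 78 of 447 split regions (17.4%; 14.2 to 21.2%), 135 of 1213 wide simple regions (11.1%; 9.48 to 13.02%) and 4.32% of all simple regions.

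Along the chromosomes, most split regions lay towards the ends, as did most simple regions. The outer 20% at each end of the 20 chromosomes, 40% of their length, held 318 of 445 split regions (71.5%; Wilson 95% interval 67.1 to 75.5%) and 19350 of 28300 simple regions (68.4%; 67.8 to 68.9%). The intervals overlap. For the outermost 10% at each end they lay just apart: 44.7% of split regions (40.2 to 49.4%) against 39.0% of simple regions (38.4 to 39.6%). The share in the outer 20% was 72.2% for regions split by replicate 1 alone (59.1 to 82.4%) and 70.8% for those split by replicate 2 alone (66.1 to 75.2%). By deciles of chromosome length, the share of shared regions that were split lay between 1.08% in the seventh (0.602 to 1.92%) and 1.87% in the tenth (1.55 to 2.26%). The interval of the ninth, at 1.11% (0.832 to 1.47%), did not overlap that of the tenth, a pair singled out after all deciles were seen. At the other end the intervals overlapped, with 1.67% (1.36 to 2.04%) in the first and 1.72% (1.37 to 2.16%) in the second.

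The number of split regions per chromosome ran from 12 on chromosome 3 to 34 on chromosome 6. As a share of shared regions, chromosome 11 had the most, with 33 of 1434 (2.30%; 1.64 to 3.21%), and chromosome 8 the fewest, with 16 of 1789 (0.894%; 0.551 to 1.45%). Chromosome 3 was close to the latter with 12 of 1296 (0.926%; 0.530 to 1.61%). The intervals of chromosome 11 and chromosomes 3 and 8 do not overlap; these were singled out after the values of all 20 chromosomes were seen. On 19 of 20 chromosomes more than 40% of split regions were in the outer parts, as were at least 59.4% of all shared regions. The exception was chromosome 13, with 9 of 29 (31.0%), where 33.4% of all shared regions lay there. Scaffolds held 2 split regions, on scaffold 32 from 97450 to 98406 with folds of 5.38 and 3.58 and on scaffold 44 from 73464 to 74215 with 6.24 and 3.25, both split by replicate 2.

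The neighbours of split regions were then measured, as gaps between shared regions. The next shared region began within 1000 bp in 102 of 447 (22.8%; Wilson 95% interval 19.2 to 26.9%), against 17.5% of simple regions (17.0 to 17.9%), and within 5000 bp in 56.6% (52.0 to 61.1%) against 51.3% (50.7 to 51.8%). Median gaps to the nearest shared region were 3951 bp and 4738 bp. The closest pair of split regions was on chromosome 3, from 33241456 to 33242327 and from 33242605 to 33243839, with 277 bp between them. The next was on chromosome 2, where the region from 42932620 to 42933584 lay 658 bp before the one split differently in both replicates.

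Just 3 split regions had a local background above 30 fragments. All were split by replicate 1 alone and had low folds over high pileups. On chromosome 17 from 23590435 to 23591529, pileups of 315 and 331 fragments gave folds of 1.65 and 2.10 in replicates 1 and 2. The others lay on chromosome 4 from 33842984 to 33844444, with folds of 2.88 and 3.28, and on chromosome 18 from 33817807 to 33819296, with 2.58 and 2.51. Such regions made up 0.671% of split regions (3 of 447) and 0.741% of simple ones. The 3 all fell among the 54 regions split by replicate 1 alone, so the pooled share does not describe each replicate's splits.

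Few of all split regions depended on an overlap of 50 bp or less, but overlaps were smaller where replicate 1 split. The smallest overlap that joined a split region was 5 bp, on chromosome 19 from 46856422 to 46857278, where replicate 2 had folds of 3.88 and 2.19 and replicate 1 had 3.95. Overlaps of up to 10 bp joined 3 regions and overlaps of up to 50 bp joined 12. The lower quartile of a region's smallest overlap was 91 bp for replicate 1 splits and 220 bp for replicate 2 splits. Just outside the rule, the closest neighbours that stayed separate lay on chromosome 10, from 50145920 to 50146493 and from 50146498 to 50147106, 4 bp apart. Their folds were 4.82 and 11.0 in replicate 1 and 4.38 and 7.21 in replicate 2. In all, 13 pairs of shared regions had a gap under 50 bp.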

How the data were processed

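ChIP-seq libraries were aligned with Bowtie 0.12.7 and peaks called with MACS2, per the submitters' processing notes; the genome build and caller settings were not given in the sources used. Peaks were called in each ChIP replicate, with a q of 0.01 per the file headers' peak names. The authors deposited, per peak, a fold (ratio over local background), a −log10 p and −log10 q, a score equal to 10 times the −log10 q, and the summit. Input libraries enter only through these values.

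Peaks of both lists were merged at an overlap of at least 1 bp with Python 3.11.15 (pandas 2.3.3, scipy 1.17.1). Pileup and local background were solved from the deposited fold (pseudocount 1) and −log10 p; a whole number fitted all 47284 and 30289 peaks within 0.001. Where a replicate had 3 peaks, the 2 with the highest folds were compared. Chromosome length was taken to the end of the last peak. Positions are 1-based.

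The members and measures were chosen with earlier results of these data known. Regions were named by fixed rules: the 10 highest mean folds, those split in both, the 5 strongest with 3 peaks, the 3 shortest and 3 longest distances, the 5 strongest weaker sites and those at the edge of the overlap rule; others were chosen after their values were seen. With 2 libraries of 1 condition, no test between groups was made. Errors are SDs over 2 replicates, and intervals are 95% and cover counting error only. Read totals were not known. Merging and pileup solving were tested on simulated data. Gene names and sequences planned beforehand were not analysed, for want of a genome of the files' build. Alternatives covered thresholds, overlap, scaffolds, background, each replicate alone and the measure of strength.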

Additional observations from a re-analysis of the deposited data

How the results depend on the processing

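Over 36 recomputed values, 29 stayed within 1.5 times the reported count or, for shares and medians, within the Wilson interval or 1 SD over replicates. The count of 447 split regions was 395 among peaks with −log10 q from 5 up and 182 from 10 up, where weaker sites drop out, and the median summit distance of 494 bp over both replicates' splits was 537 bp at the latter. The share split by replicate 2 alone, 86.4% of 447 regions, was 90.7% of 420 when overlaps had to reach 50% of the narrower peak. The lower quartile of a region's smallest overlap was 91 bp for replicate 1 splits and 220 bp for replicate 2 splits. The part of overlap size in this rise was not tested. With 1 replicate's splits left out, the median distance lay between 444 and 497 bp, the ratio of weaker to stronger fold (0.634 over both) between 0.566 and 0.651, and the share in the outer quintiles between 71.4 and 75.4%. That ratio was 0.457 with −log10 p in place of fold and 0.659 with pileup. The outer deciles, a smaller part of the chromosome by construction, held 44.7% of split regions. Some of the 29 values could not move. A minimum gap of 50 bp removed none because no gap in either list was smaller. The outer share on the 20 chromosomes alone was also fixed, as scaffolds never entered it. For distance and ratio, the SD came from the medians of the 2 replicates. With 1 replicate left out, the value nearer to the joint median therefore always lay within 1 SD. No paired analysis was possible because a peak list exists here for ChIP libraries alone. Pileups near 30 fragments at weaker sites limit how well their order is known, and a site listed in 1 replicate cannot be called unbound in the other.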
